A study of Rattus norvegicus with 24 samples.

Results

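The comparison described here is that of the injured with the sham-operated ipsilateral thalamus of the rat, 3 months after surgery, across all miRNAs, hairpin arms, miRNA families and tRNA anticodons. It rests on 12 of the 24 samples of the series, those labelled as thalamus. They were 6 TBI samples (rats 22, 24, 45, 52, 56 and 63) and 6 sham-operated controls (rats 26, 32, 34, 38, 50 and 55), each from a separate adult Sprague-Dawley rat for which the labels name no genetic change. According to the study's methods, all rats were male and had anesthesia and a craniectomy over the left parietal cortex. Only the TBI rats had the lateral fluid-percussion impact, a pressure pulse onto the closed dura. The TBI rats were not a random draw of injured rats, since they had been picked by MRI for an inflamed rim around the cortical lesion. Thalamus and cortex came from the same coronal slice, so that the perilesional cortex of the same 12 rats gave the other 12 samples.

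A miRNA is cut from an RNA hairpin whose 5p and 3p arms can each be loaded into an Argonaute protein, and bases 2 to 8 of the loaded strand, the seed, pair with target mRNAs. One arm usually accumulates and the other is degraded, so a change in the arm ratio would change which mRNAs are paired. Transfer RNAs carry amino acids to the ribosome, and cells under stress cut them into fragments of the size that small RNA libraries capture. After a cortical impact the connected thalamic nuclei lose neurons over weeks to months, and microglia and astrocytes there stay reactive. Several miRNAs are markers of these cells, such as miR-142 of leukocytes and microglia, miR-124 of neurons and miR-219 of oligodendrocytes.

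The mature sequences on which the miRNA results turn are shown 5′ to 3′ with the seed in capitals, as RefSeq gives them on the GRCr8 build, where 655 of the 728 names were matched. The first group holds miR-155-5p and miR-146a-5p, which passed the adjusted test, 5 miRNAs with a positive log2 fold change and an unadjusted p under 0.05 that did not pass it, and relatives of these (miR-146b-5p, miR-181a-1-3p and miR-92b-3p).
miR-155-5p: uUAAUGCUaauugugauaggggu
miR-146a-5p: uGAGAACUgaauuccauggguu
miR-146b-5p: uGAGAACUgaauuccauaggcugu
miR-142-5p: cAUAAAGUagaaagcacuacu
miR-181a-2-3p: aCCACCAAccguugacugu
miR-181a-1-3p: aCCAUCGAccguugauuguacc
miR-92a-3p: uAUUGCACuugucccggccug
miR-92b-3p: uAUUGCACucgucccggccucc
miR-17-5p: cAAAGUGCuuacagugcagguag
miR-20a-5p: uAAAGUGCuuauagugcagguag
The second group holds the miRNAs with the smallest p-values among those that were lower, and the relatives of miR-34a-5p.
miR-34a-5p: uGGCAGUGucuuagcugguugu
miR-34b-5p: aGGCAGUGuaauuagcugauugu
miR-34c-5p: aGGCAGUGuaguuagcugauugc
miR-138-5p: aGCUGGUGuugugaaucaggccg
miR-146a-5p and miR-146b-5p shared the seed GAGAACU, the 3 members of the miR-34 group shared GGCAGUG, miR-17-5p and miR-20a-5p shared AAAGUGC, and miR-92a-3p and miR-92b-3p shared AUUGCAC. The 3p arms of the miR-181a hairpins have different seeds, CCACCAA and CCAUCGA. The hairpin of miR-142 lies at chr10:73055104-73055190 on the plus strand, and its arms are in capitals here because both were sequenced.
Mir142 hairpin: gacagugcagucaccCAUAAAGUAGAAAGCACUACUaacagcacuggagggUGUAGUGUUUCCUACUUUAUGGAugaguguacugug

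The thalamic libraries held 523298 to 4139901 miRNA reads. The study also gave CPM of miRNA and tRNA rows together (reads scaled to the library's total). There 1 read was worth 0.221 to 1.62 CPM, and a floor of 3 reads was at most 4.87 CPM. Depth did not separate the groups (2119820 ± 1016730 reads in TBI and 2005580 ± 1205840 in controls, SD, n = 6 each; p = 0.857, two-sided exact permutation test over 924 divisions). The libraries of sham rat 55 and TBI rat 56 were the shallowest and had the lowest scaling factors by the trimmed mean of M-values (TMM), 0.745 and 0.845. The miRNA levels below are TMM-scaled CPM of miRNA reads alone. On that scale 1 read was worth more in these 2 libraries, so the floor above does not hold for their miRNA levels. Values without these 2 libraries are given where they change a result. The brain labels fitted the marker miRNAs, since the neuronal list summed to between 154826 and 439189 CPM in every library and the oligodendrocyte list to between 13005 and 24225 CPM, whereas the red cell list stayed between 5.45 and 53.3 CPM. None of the lists marks the thalamus, so the region itself was not checked.

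Of 728 miRNAs in the count table, 603 had at least 1 read in a thalamic library and 390 passed the filter on low counts. An adjusted p-value under 0.05 in edgeR's quasi-likelihood test was reached by 2 miRNAs, which is 0.513% of those tested, and both were higher in TBI. An unadjusted p-value under 0.05 was reached by 22 miRNAs (5.64%), 13 of them higher and 9 lower. In 5 miRNAs (1.28%) the TMM-scaled levels of the groups did not overlap, and in all 5 every TBI rat was above every control. Among 374 miRNA rows of the CPM with tRNA, without TMM, 2 had all TBI rats above the controls and 2 had all below. The number and direction of such miRNAs thus differed between the 2 scalings. Over all 390 miRNAs, 184 had a log2 fold change above 0 and the median was -0.03.

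The 2 miRNAs that rose, miR-155-5p and miR-146a-5p, are induced by inflammatory signalling, miR-146a as a brake on Toll-like receptor signalling and miR-155 as a promoter of it. miR-155-5p lay between 7.02 and 16.7 CPM in TBI rats (median 11.6) and between 3.32 and 5.74 CPM in controls (median 4.46). The reads behind it were few, 5 to 64 in a TBI library and 2 to 20 in a control library, but the groups did not overlap. It was higher by 1.45 on the log2 scale (SE 0.26, adjusted p = 0.0207, edgeR). miR-146a-5p, at chr10:28350053-28350074 on the minus strand, lay between 426.7 and 892 CPM in TBI rats (median 732) and between 264.5 and 421 CPM in controls (median 348). The lowest TBI rat, number 22, was just above the highest control, number 55. Its log2 fold change was 1.04 (SE 0.20, adjusted p = 0.0207, edgeR). Leaving out 1 rat at a time moved the log2 fold change of miR-155-5p to between 1.38 and 1.67 and that of miR-146a-5p to between 0.98 and 1.25. Both calls were lost without sham rats 26, 32 or 34, with adjusted p-values of 0.0502, 0.0605 and 0.0744 in edgeR, and that of miR-146a-5p also without sham rat 38 (adjusted p = 0.0578, edgeR). These are 2 miRNAs that the study itself picked on these libraries, so their direction here is not independent evidence.

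**Figure D1:**
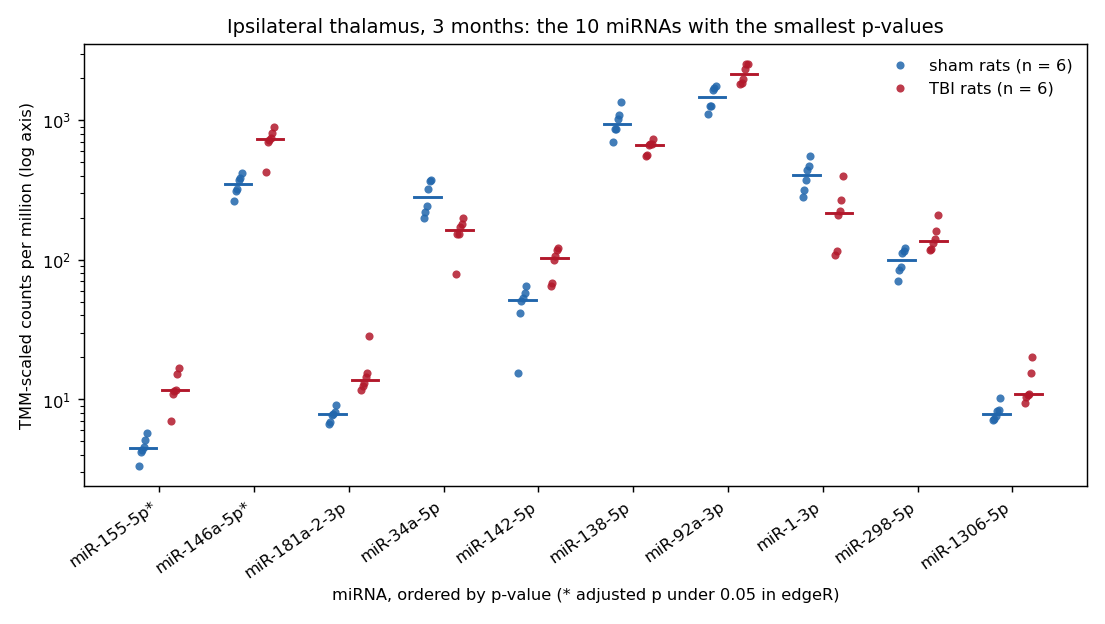
Points are the libraries of single rats, blue for 6 controls and red for 6 TBI rats, with a bar at each group's median, for the 10 miRNAs with the smallest p-values. The log axis gives TMM-scaled CPM, and a star marks the 2 miRNAs with an adjusted p under 0.05. No TBI point of miR-155-5p, miR-146a-5p, miR-181a-2-3p, miR-142-5p or miR-92a-3p lies as low as a control point.

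The remaining 3 miRNAs whose groups did not overlap on the TMM scale were miR-181a-2-3p, miR-142-5p and miR-92a-3p, and none of them passed the adjustment. In the CPM with tRNA, without TMM, only 2 miRNAs of any name had every TBI rat above every control. miR-142-5p, which blood-derived cells and microglia make, lay between 65.4 and 122.5 CPM in TBI rats (median 103) and between 15.4 and 64.8 CPM in controls (median 51.9). The edge between the groups was narrow, 65.4 CPM in TBI rat 52 against 64.8 CPM in sham rat 50. The difference was 1.01 on the log2 scale (SE 0.28, adjusted p = 0.217, edgeR). With DESeq2 it passed (adjusted p = 0.0104), as it did when all 24 libraries of the series shared 1 estimate of the spread in edgeR (adjusted p = 0.0375). The fit of all 24 libraries had no block for the rat, so the thalamus and cortex of a rat counted as independent.

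miR-181a-2-3p, the minor arm of a hairpin whose 5p arm is among the most abundant miRNAs of the brain, lay between 11.7 and 28.6 CPM in TBI rats (median 13.9). In controls it lay between 6.63 and 9.19 CPM (median 7.81). The reads behind it were few, 13 to 56 in a TBI library and 3 to 33 in a control library. The highest TBI value was that of rat 56, a shallow library, and the next was 15.4 CPM. The log2 fold change was 0.96 (SE 0.24, adjusted p = 0.175, edgeR). The 5p arm, miR-181a-5p, is the same for the miR-181a-1 and miR-181a-2 hairpins, so that its reads cannot be split between them, and its log2 fold change was 0.06. The other 3p arm, miR-181a-1-3p, had 570 ± 40.9 CPM in TBI and 596 ± 64.2 CPM in controls (SD, n = 6 each), with a log2 fold change of -0.06. Of the 8 miRNAs of the miR-181 group tested, only miR-181a-2-3p had an unadjusted p under 0.05.

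miR-92a-3p, a member of the miR-17-92 cluster that promotes proliferation, lay between 1810 and 2525 CPM in TBI rats (median 2142) and between 1115 and 1765 CPM in controls (median 1457). Every TBI rat was above every control, by a margin of 1810 to 1765 CPM at the edge. The log2 fold change was 0.57 (SE 0.18, adjusted p = 0.329, edgeR). The further members of the 10 smallest p-values on the higher side, miR-298-5p and miR-1306-5p, had log2 fold changes of 0.58 and 0.66, with overlapping groups.

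On the lower side, miR-34a-5p, a target of p53, lay between 79.2 and 201 CPM in TBI rats (median 162) and between 199 and 374 CPM in controls (median 283). The ranges touched, with TBI rat 45 at 201 CPM and sham rat 26 at 199 CPM. The log2 fold change was -0.87 (SE 0.24, adjusted p = 0.217, edgeR). miR-138-5p, a neuronal miRNA that limits dendritic spine size, lay between 552.5 and 729 CPM in TBI rats (median 667) and between 701 and 1342 CPM in controls (median 945). Only sham rat 34 reached down into the TBI range. The log2 fold change was -0.61 (SE 0.18, adjusted p = 0.262, edgeR). When all 24 libraries shared 1 estimate of the spread, with no block for the rat, miR-34a-5p and miR-138-5p passed as lower in TBI (adjusted p = 0.0466 and 0.0375, edgeR). That fit called 5 miRNAs in all, 3 higher and 2 lower. miR-1-3p, a striated muscle miRNA, had 222 ± 108 CPM in TBI and 405 ± 101 CPM in controls (SD, n = 6 each), a log2 fold change of -0.87 with overlapping groups (adjusted p = 0.576, edgeR).

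The miRNAs were next read by list. Lists were described by how many tested members lay above or below a log2 fold change of 0 and by their median, set beside 184 of 390 above 0 and a median of -0.03 over all miRNAs, with no test of a list. The shallowest control library bore on these counts, since without sham rat 55 the log2 fold change was above 0 in 238 of 393 miRNAs and their median was 0.09. Several lists count both arms of a hairpin or miRNAs of a shared cluster, so their members are not independent of each other. The neuronal list, for example, holds both arms of miR-9a, miR-124, miR-132 and miR-212. Since these were bulk samples, fewer cells of a type and less RNA per cell cannot be told apart.

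Of 17 miRNAs of inflammation and the glial reaction, 11 were tested. The 2 called miRNAs were among them, 4 had an unadjusted p under 0.05, all higher, and 7 of 11 lay above 0, with a median of 0.35 (10 of 11 and 0.50 without sham rat 55). Beside miR-155-5p, miR-146a-5p and miR-142-5p, the fourth was miR-150-5p, a lymphocyte miRNA, with 1413 ± 329 CPM in TBI and 1016 ± 169 CPM in controls (SD, n = 6 each) and a log2 fold change of 0.48. miR-155-5p and miR-146a-5p, which the study picked on these libraries, enter the counts and the median of the list. The other tested members ranged from -0.30 for miR-146b-5p to 1.01 for miR-142-5p. The most abundant members did not pass any threshold. miR-21-5p, which reactive astrocytes make, had a log2 fold change of -0.10 at 11371 CPM in TBI and 12182 CPM in controls, miR-22-3p had -0.11 and miR-146b-5p had -0.30. The summed level of the list, which those abundant members set, overlapped between the groups (19667 to 33451 CPM in TBI and 25128 to 39379 CPM in controls). miR-223-3p, the myeloid miRNA, was too low to be tested, with 127 reads in all TBI libraries and 50 in all controls.

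Of the 15 neuronal miRNAs, all were tested and 14 lay below 0, with a median of -0.33, but none was called. miR-138-5p and miR-218a-5p had an unadjusted p under 0.05. miR-218a-5p, which is enriched in motor neurons, had 2915 ± 1009 CPM in TBI and 4381 ± 694 CPM in controls (SD, n = 6 each) and a log2 fold change of -0.59. The best known neuronal miRNA, miR-124-3p, had 5338 ± 964 CPM in TBI and 6830 ± 1559 CPM in controls, or -0.36 on the log2 scale (SE 0.20). The activity-regulated arms miR-132-3p and miR-132-5p had log2 fold changes of -0.37 and -0.33. miR-7a-5p, at 0.07, was the member above 0. With either of 2 other scalings (DESeq2 size factors and library size alone) and without the 2 shallowest libraries, 14 of 15 again lay below 0. Leaving out 1 rat at a time gave 11 of 15 below 0 without sham rat 55 (median -0.22), 13 without TBI rat 45, 15 without sham rat 34 (median -0.38) or TBI rat 56, and 14 in the other cases.

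The imprinted Dlk1-Dio3 locus holds the largest miRNA cluster of mammals, which is expressed mainly in neurons. Of 87 of its miRNAs, 68 were tested and 62 lay below 0, with a median of -0.30 and a range from -0.61 to 0.21. A single member, miR-154-5p, had an unadjusted p under 0.05, with 66.1 ± 14.6 CPM in TBI and 95.5 ± 16.0 CPM in controls (SD, n = 6 each) and a log2 fold change of -0.52. The most abundant members, miR-434-3p, miR-433-3p and miR-127-3p, had log2 fold changes of -0.18, 0.03 and -0.35. Under library size alone 63 of 68 lay below 0, and under DESeq2 size factors 61 did. Without sham rat 55, 22 of 68 lay above 0 and the median was -0.16, and without TBI rat 45, 14 of 69 did and the median was -0.17. These miRNAs come from 1 transcribed locus and are not independent of each other. The summed level of the list overlapped between the groups, from 45153 to 83544 CPM in TBI and from 57961 to 108809 CPM in controls, with the highest control value in sham rat 55.

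The list of the miR-17-92 cluster and its paralogs, which are tied to dividing cells, also holds both arms of miR-92b, a seed relative. The gene of miR-92b lies on chr2, apart from those given for miR-17-5p, miR-20a-5p and miR-92a-3p on chr15. All 14 tested miRNAs of the list lay above 0, with a median of 0.33. miR-17-5p lay between 98.2 and 292 CPM in TBI rats (median 198) and between 51.3 and 151 CPM in controls (median 122). Its log2 fold change was 0.75 (SE 0.30) and that of miR-20a-5p, which shares its seed, was 0.67 (SE 0.30). Together with miR-92a-3p these were the 3 members with an unadjusted p under 0.05. The lower end was miR-19a-3p at 0.12. All 14 were above 0 under both other scalings and without the 2 shallowest libraries as well, and 13 of 14 were without TBI rat 24. The list's summed level was 6574 to 13706 CPM in TBI and 4906 to 7513 CPM in controls, so that the groups overlapped.

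All 8 let-7 guide strands tested also lay above 0, with a smaller median of 0.11. Without sham rat 34, 5 of 8 did and the median was 0.04, and it was 0.25 without sham rat 32. let-7b-5p alone had an unadjusted p under 0.05, with 9597 ± 2521 CPM in TBI and 6525 ± 1361 CPM in controls (SD, n = 6 each) and a log2 fold change of 0.56. The most abundant, let-7i-5p, had 0.03. Of 11 miR-30 members 9 lay below 0, with a median of -0.06, but 6 did under DESeq2 size factors, and without the 2 shallowest libraries 5 did. The 10 members of the miR-99, miR-100 and miR-125 group were split 5 to 5, but this split was not stable. Above 0 lay 7 of 10 under either other scaling and 8 without the 2 shallowest libraries (median 0.16). It was 9 without sham rat 55 (median 0.31) and 3 without TBI rat 56 (median -0.08). The 5 oligodendrocyte miRNAs had a median of 0.01, and miR-219a-2-3p, the most abundant of them, had 13269 ± 1441 CPM in TBI and 13204 ± 3488 CPM in controls (SD, n = 6 each). The 4 miRNAs that the study used as endogenous controls had log2 fold changes between 0.01 and 0.04, but their median was 0.26 without sham rat 55 and between -0.04 and 0.15 without any other rat.

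**Figure D2:**
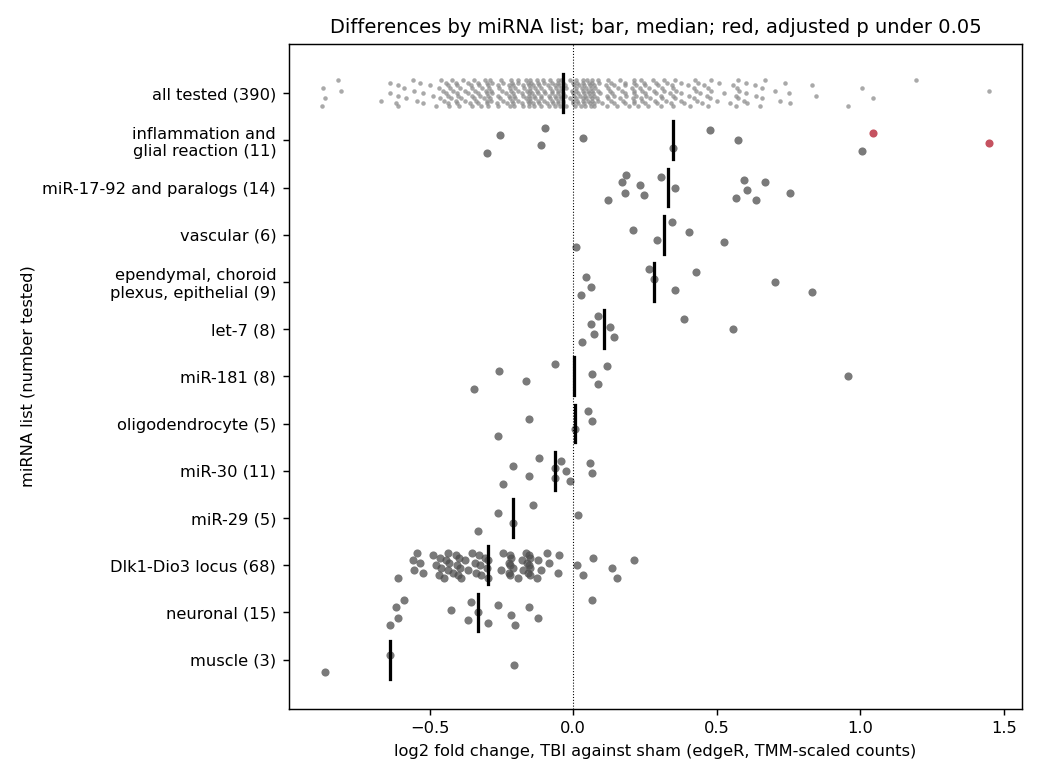
Each point is the log2 fold change of 1 miRNA, TBI against sham, by list, with the number tested in parentheses, a black bar at the median and red for an adjusted p under 0.05. The neuronal and Dlk1-Dio3 points lie almost all left of 0, with medians of -0.33 and -0.30, and the 14 points of the miR-17-92 group lie right of 0, with a median of 0.33.

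The medians of 2 further lists, the ependymal and epithelial list and the miR-183 cluster, moved most when TBI rat 45 was left out. The 9 tested miRNAs of ependyma, choroid plexus and epithelium all lay above 0, with a median of 0.28, and none had an unadjusted p under 0.05. Their summed level was 22161 CPM in TBI rat 45 and at most 5508 CPM in the other TBI rats, against 3083 to 8690 CPM in controls. Without TBI rat 45 the median was -0.23 and 1 of 9 lay above 0. The sensory miRNAs of the miR-183 cluster were also highest in that rat, at 141 CPM, against at most 28.6 CPM in the other TBI rats and 15.8 to 98.6 CPM in controls. Without TBI rat 45 the log2 fold change of miR-155-5p was 1.38 and that of miR-146a-5p 1.03 (adjusted p = 0.0421 for each, edgeR), the neuronal median was -0.23 and the vascular median 0.19. Of 6 vascular miRNAs, all lay above 0 with a median of 0.32, which stayed between 0.19 and 0.48 without any 1 rat. Above 0 lay 5 under library size alone, without TBI rat 45 or without sham rat 55. The 3 tested muscle miRNAs lay below 0, with a median of -0.64 and summed levels of 143 to 468 CPM in TBI and 357 to 659 CPM in controls. The muscle median stayed between -0.87 and -0.41 without any 1 rat, and without the 2 shallowest libraries 2 of 3 muscle miRNAs lay below 0. The reads of 5 further muscle miRNAs, among them miR-208a-3p of the heart, were 0 in all 12 libraries. The part of these tissues in the other results was not tested.

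Summing miRNAs into families by name, so that miR-92a-3p and miR-92b-3p form miR-92-3p, gave 327 families, of which 54 had at least 2 members. An adjusted p under 0.05 was reached by 1 family (0.306%), and this was miR-155-5p, which has a single member. Its log2 fold change was 1.47 (SE 0.26, adjusted p = 0.0164, edgeR). The call was lost without the 2 shallowest libraries (adjusted p = 0.0625), and without any of sham rats 26, 32, 34 and 50 or TBI rat 45 (adjusted p = 0.0547 to 0.0738, edgeR).

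In families with several members, the sum did not follow a miRNA named above where a more abundant member did not share its difference. miR-146a-5p and miR-146b-5p differ near the 3′ end and share their seed, and miR-146b-5p had 38052 reads in TBI and 40418 in controls against 9486 and 4132 for miR-146a-5p. The summed family stood at -0.11 (SE 0.26, adjusted p = 0.933, edgeR). miR-34a-5p with miR-34b-5p and miR-34c-5p came to 0.01 (SE 0.39), and in that family miR-34c-5p had 2365 CPM in TBI and 2291 CPM in controls against 156 and 288 CPM for miR-34a-5p. The 6 minor arms of the miR-181-3p family came to -0.05. By contrast both members of miR-92-3p lay on the same side, and the family had 7197 ± 2710 CPM in TBI and 4643 ± 1193 CPM in controls (SD, n = 6 each), which is 0.63 on the log2 scale (SE 0.25, adjusted p = 0.778, edgeR). The largest family, let-7-5p with 7 members, had 0.17 (SE 0.15).

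Grouping by shared seed instead gave 1 call as well, for the seed UAAUGCU that only miR-155-5p carries (adjusted p = 0.0227, edgeR). The seed AUUGCAC, shared by miR-92a-3p, miR-92b-3p, miR-25-3p and miR-32-5p, was at 0.63 (SE 0.22), and the seed AAAGUGC of miR-17-5p, miR-20a-5p, miR-93-5p and miR-106b-5p had 0.51 (SE 0.31). The seed GAGAACU of both miR-146 miRNAs had -0.07 and the seed GGCAGUG of the miR-34 group 0.03. None of these 4 passed the adjustment.

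Both arms were listed for 265 hairpins, and 97 of them had a mean of at least 20 reads in each arm. For these the log2 ratio of 5p to 3p reads was compared between groups with limma. No hairpin was called (0%), and none had an unadjusted p under 0.05. The 5p arm led in both groups in 57 hairpins and the 3p arm in 38. The remaining 2, miR-455 and miR-380, had arms of nearly equal abundance, with 5p shares of 48.0% and 48.4% in TBI and 56.6% and 51.5% in controls. In 96 of 97 hairpins the mean 5p share differed by less than 10 percentage points. The exception was miR-15b, the hairpin with the smallest p (0.0682 unadjusted, limma), whose 5p share was 74.2% ± 8.09 in TBI and 62.1% ± 13.4 in controls (SD, n = 6 each).

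These ratios had limited precision. The unadjusted 95% interval of the difference reached 0.71 on the log2 scale to either side of the estimate in the median hairpin. A shift of the ratio of about that size could thus still be missed, and more so after adjustment over 97 hairpins. The miR-142 hairpin, printed above, gave mean log2 ratios of 1.24 ± 0.40 in TBI and 0.80 ± 0.41 in controls (SD, n = 6 each). Its 5p arm made up 70.3% of reads in TBI and 63.9% in controls, and the difference of 0.44 had a 95% interval from -0.11 to 0.99. miR-142-3p itself was at 0.58 (SE 0.35) as a log2 fold change, beside 1.01 for the 5p arm. For miR-155 and miR-146a the ratio could not be compared, because miR-155-3p had 1 read in all TBI libraries and 0 in controls, and miR-146a-3p had 31 and 22. The arms of miR-138 differed in their own fold changes, -0.61 for miR-138-5p, -0.25 for miR-138-1-3p and -0.14 for miR-138-2-3p, but the 5p arm is shared by both hairpins and formed no pair.

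**Figure D3:**
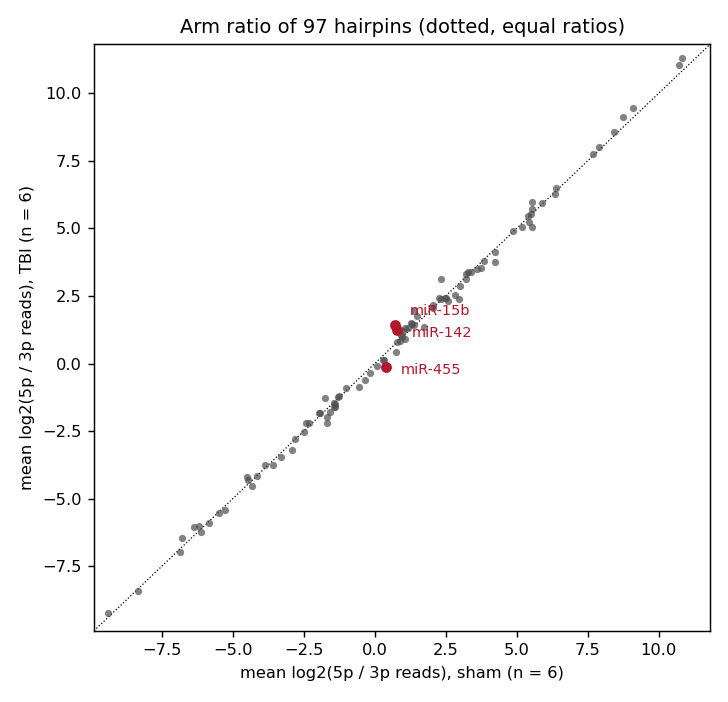
Each point is 1 of 97 hairpins, with its mean log2 ratio of 5p to 3p reads in 6 controls on the horizontal axis and in 6 TBI rats on the vertical axis. The points follow the dotted line of equal ratios. miR-142 and miR-15b lie above it and miR-455 below it, all within the spread between rats.

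The second table of the study held 266 tRNA features and 375 miRNAs in CPM. Of all 640 rows tested with limma, 14 passed (2.19%). In 18 rows (2.81%) the groups did not overlap, 16 with every TBI rat above the controls and 2 with every TBI rat below. Among the tRNA features alone 12 passed (4.51%), all higher in TBI, and 32 had an unadjusted p under 0.05, all higher as well. The tRNA features lay above 0 in 204 of 266, with a median log2 fold change of 0.27, which fell to 0.19 when TMM factors were applied. The tRNA reads as a share of the table were 13.3% ± 2.55 in TBI and 11.9% ± 3.75 in controls (SD, n = 6 each), a difference within the spread between rats (p = 0.474, two-sided exact permutation test). The position of a read within the tRNA is not part of the table, so fragments cannot be assigned to the 5′ or 3′ end from these values. From the alignments, the study placed fragments of the Ile-AAT and Lys-TTT tRNAs mainly at the 3′ end. It picked both tRNAs on data that include these libraries, so their direction here is not independent evidence. The features of an anticodon can share reads, since tRNA genes occur in near-identical copies.

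The features were therefore summed into 46 anticodons, and these were tested beside the miRNA rows. Of the 420 rows, 4 passed (0.952%), and these were 3 anticodons, all higher in TBI, and miR-146a-5p. Asn-GTT, which reads asparagine codons, lay between 302 and 575 CPM in TBI rats (median 427) and between 120.2 and 215 CPM in controls (median 157). The groups did not overlap, and the log2 fold change was 1.45 (SE 0.20, adjusted p = 0.00177, limma, 95% interval 1.02 to 1.89). It passed without any 1 of the 12 rats, with log2 fold changes of 1.36 to 1.55.

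Arg-ACG, which reads arginine codons, lay between 52.9 and 83.2 CPM in TBI rats (median 69.6) and between 21.5 and 48.5 CPM in controls (median 29.5). The groups did not overlap, though sham rat 38 came close, and the log2 fold change was 1.18 (SE 0.22, adjusted p = 0.0183, limma). Ile-AAT, which reads isoleucine codons, lay between 87.7 and 193 CPM in TBI rats (median 121) and between 49.5 and 70.2 CPM in controls (median 59.6). Its log2 fold change was 1.09 (SE 0.21, adjusted p = 0.0189, limma), again with no overlap. Both calls were lost without TBI rat 24 (adjusted p = 0.0719 for each, limma) or sham rat 32 (adjusted p = 0.0607 for each), and that of Ile-AAT also without sham rat 38 (adjusted p = 0.0574) or TBI rat 45 (adjusted p = 0.0503). Phe-GAA was the fourth anticodon without overlap, with 53.0 ± 11.2 CPM in TBI and 28.3 ± 7.03 CPM in controls (SD, n = 6 each), which is 0.89 on the log2 scale (SE 0.23, adjusted p = 0.0956, limma).

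Across the 46 anticodons, 37 lay above 0 and 6 had an unadjusted p under 0.05, beside 195 and 25 of all 420 rows of the same test. The 6 were the 4 above, Arg-TCG (log2 fold change 0.74) and Thr-TGT (0.71). Within an amino acid the values ranged as follows. For arginine, the log2 fold changes were 1.18 for ACG, 0.74 for TCG, 0.47 for TCT, 0.31 for CCG and 0.11 for CCT. For isoleucine, AAT had 1.09 and TAT 0.45 (SE 0.26), and for lysine, TTT had 0.60 (SE 0.30) and CTT 0.18 (SE 0.23). These differences between anticodons were not tested, and the 95% intervals of Ile-AAT (0.64 to 1.55) and Ile-TAT (-0.12 to 1.01) overlapped. All 5 leucine anticodons lay between -0.36 and 0.01, and the lowest of all 46 was Leu-TAA at -0.36 (95% interval -1.17 to 0.45).

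The most abundant anticodons were not those that rose. Gly-GCC had 49763 ± 8452 CPM in TBI and 47767 ± 16238 CPM in controls (SD, n = 6 each), with a log2 fold change of 0.11 (95% interval -0.32 to 0.54). Glu-CTC, at 27297 ± 6105 and 22520 ± 7890 CPM, had 0.32 (95% interval -0.15 to 0.78). Lys-CTT, at 16938 ± 3498 and 15571 ± 5796 CPM, had 0.18 (95% interval -0.32 to 0.67). Fragments of tRNA-Gly and tRNA-Glu are common in small RNA libraries of many tissues. The 3 anticodons that rose came together to far fewer reads, with 228 to 1654 Asn-GTT reads in a TBI library and 78 to 699 in a control library.

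**Figure D4:**
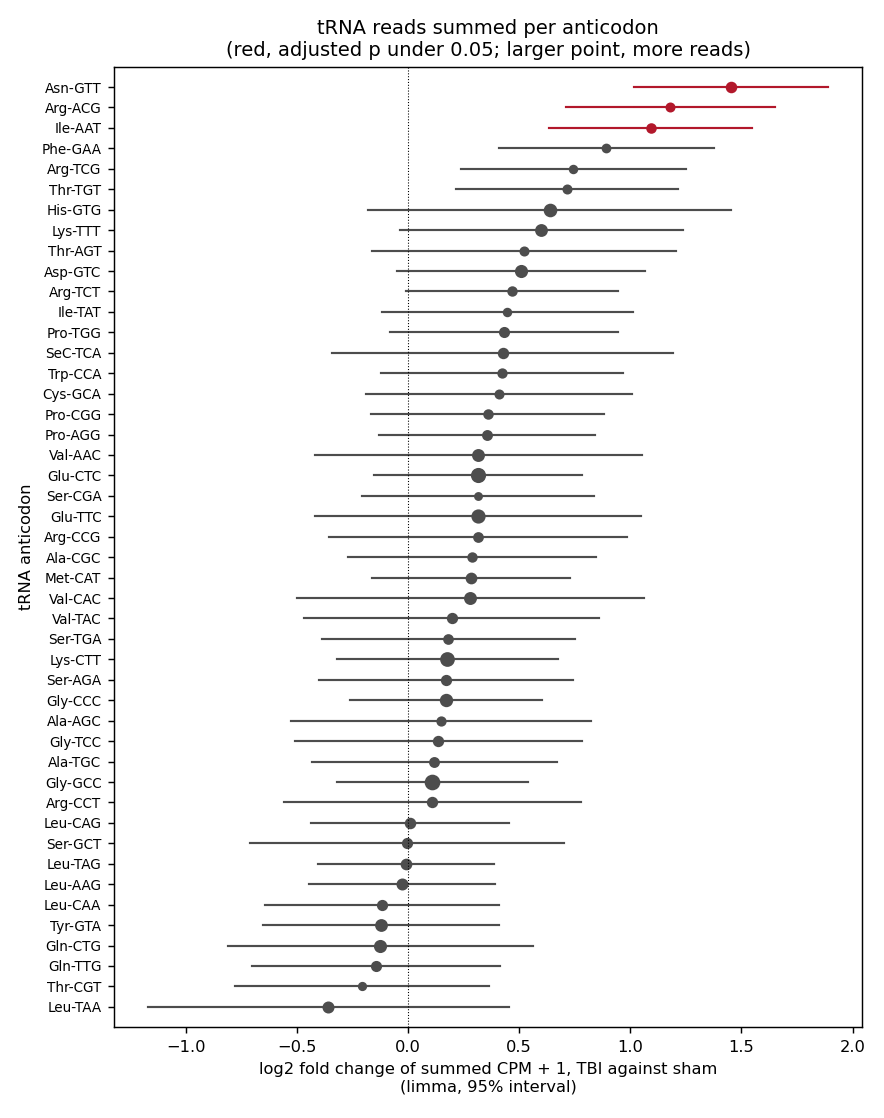
Points are log2 fold changes of tRNA reads summed per anticodon, TBI against sham, with 95% intervals from limma, larger for more reads and red for an adjusted p under 0.05. The 3 red anticodons, Asn-GTT, Arg-ACG and Ile-AAT, have intervals well above 0, and 37 of 46 points lie right of 0.

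The features of the 3 anticodons that rose were also tested singly, though they can share reads and are not independent of each other. Of 10 Asn-GTT features, 7 passed, with log2 fold changes from 1.18 for tRNA3824-AsnGTT to 1.85 for tRNA2846-AsnGTT. The latter held much of the anticodon's reads, between 126 and 295.1 CPM in TBI rats and between 20.7 and 96.9 CPM in controls. tRNA177-AsnGTT, at 1.36, missed the threshold (adjusted p = 0.0658, limma). The other 2 features did not follow, tRNA4111-AsnGTT at 0.19 (SE 0.24) and tRNA746-AsnGTT at -0.15 (SE 0.49). In Arg-ACG, all 4 features lay between 0.85 and 1.44 and 2 passed, tRNA1035-ArgACG and tRNA1630-ArgACG (adjusted p = 0.0131 and 0.0166, limma). The call of tRNA1630-ArgACG was lost without TBI rats 24 or 63 or sham rats 26 or 32 (adjusted p = 0.0515 to 0.0609, limma). In Ile-AAT, 1 of 7 features passed, tRNA1652-IleAAT, which lay between 38.9 and 96.0 CPM in TBI rats and between 6.38 and 14.8 CPM in controls. Its log2 fold change of 2.33 (SE 0.27, adjusted p = 8.58e-05, limma) was the largest of the table, and the other 6 lay between 0.25 and 0.76.

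tRNA5177-LysTTT also passed, with 41.7 to 75.4 CPM in TBI rats and 7.16 to 17.6 CPM in controls. It was higher by 2.08 on the log2 scale (SE 0.24, adjusted p = 8.58e-05, limma). It held 3.18% ± 1.07 of Lys-TTT reads in TBI and 1.16% ± 0.76 in controls (SD, n = 6 each), and the anticodon's sum had a log2 fold change of 0.60. In Arg-TCG, tRNA3877-ArgTCG rose by 1.02 (SE 0.24, adjusted p = 0.0302, limma), a call lost without any of 8 rats in turn, and tRNA6098-ArgTCG had -0.18 (SE 0.29). All 4 Phe-GAA features lay between 0.67 and 1.00 and none passed.

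To ask whether the make-up of an anticodon differed, each feature was compared with the rest of its anticodon in the same library. Of 264 such ratios, 6 passed in limma (2.27%), 2 higher and 4 lower in TBI. tRNA1652-IleAAT made up between 37.0% and 53.7% of Ile-AAT reads in TBI rats and between 12.1% and 25.4% in controls. The log2 ratio to the other Ile-AAT reads was higher by 1.83 (SE 0.22, adjusted p = 0.000584, limma). In the same anticodon the shares of tRNA3858-IleAAT (11.9% ± 1.13 in TBI and 19.3% ± 2.23 in controls, SD, n = 6 each) and tRNA10837-IleAAT (11.6% ± 1.59 and 19.3% ± 5.85) were lower, by -0.84 and -0.85 on the log2 scale (adjusted p = 0.000584 and 0.0439, limma). A share must fall where another of the same anticodon rises, and both features were themselves slightly above 0, at 0.38 and 0.37. The call of tRNA10837-IleAAT was lost without any of 7 rats in turn.

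tRNA4111-AsnGTT fell from 5.46% ± 1.49 of Asn-GTT reads in controls to 2.25% ± 0.35 in TBI (SD, n = 6 each). Its log2 ratio differed by -1.31 (SE 0.18, adjusted p = 0.000914, limma). The pair of Arg-TCG features gave mirrored ratios, since each is the rest of the other, and tRNA3877-ArgTCG made up 79.0% to 89.1% of the anticodon in TBI rats and 60.0% to 74.1% in controls. The log2 ratio of tRNA3877-ArgTCG was higher by 1.19 (SE 0.19, adjusted p = 0.00266, limma). The number of calls was 18 without the 2 shallowest libraries, 15 without sham rat 55 alone and 10 without TBI rat 56 alone, and the 6 calls were among these each time.

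**Figure D5:**
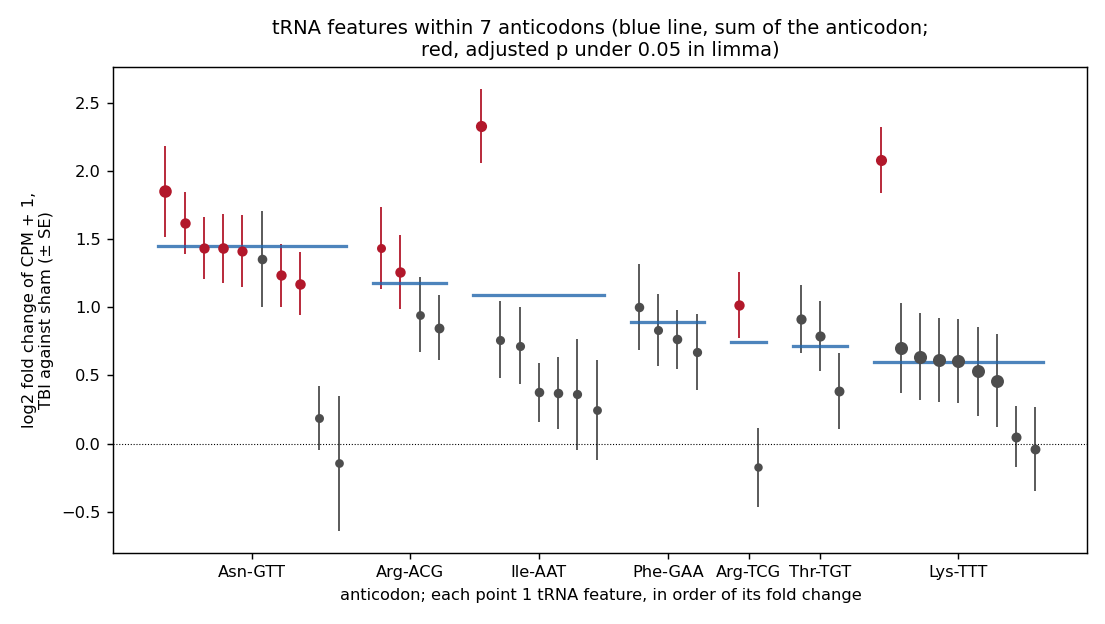
Each point is 1 tRNA feature, grouped by anticodon, with its log2 fold change, TBI against sham, and SE, larger for more reads and red for an adjusted p under 0.05 in limma. Blue lines give the anticodon's sum. tRNA1652-IleAAT at 2.33 and tRNA5177-LysTTT at 2.08 stand far above their anticodons' lines, whereas 7 of 10 Asn-GTT features lie red near theirs.

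The injury difference of the thalamus was last compared with that of the perilesional cortex of the same rats, as the region by injury interaction for 407 miRNAs. No miRNA was called (0%), 16 had an unadjusted p under 0.05 and the smallest adjusted p was 1.00 in edgeR. With the rat as a block, since each rat gave both regions, 0 were called, 19 had an unadjusted p under 0.05 and the smallest adjusted p was 0.419. Values are given side by side for 5 miRNAs that were higher on the log2 scale in the thalamus and 3 that were lower. All had an unadjusted p under 0.05 in the thalamus (edgeR), and this choice favors values further from 0 there. Cortical values nearer 0 thus do not by themselves show a weaker difference in the cortex. In the cortex alone the same edgeR test called 21 miRNAs. The log2 fold changes in thalamus and cortex were 1.45 and 0.84 for miR-155-5p, 1.04 and 0.72 in the case of miR-146a-5p, 1.01 and 0.58 for miR-142-5p, 0.57 and 0.53 for miR-92a-3p, and 0.75 and 0.89 for miR-17-5p. On the lower side they were -0.87 and -0.28 for miR-34a-5p, -0.87 and -0.62 for miR-1-3p, and -0.81 and 0.15 for miR-10b-5p, which thus had opposite signs. The cortical value of miR-181a-2-3p was not computed on its own, and its difference between the regions was 0.03 (SE 0.48). The difference between the regions was 0.65 (SE 0.46, unadjusted p = 0.166, edgeR) for miR-155-5p, and miR-146a-5p differed by 0.38 (SE 0.32, unadjusted p = 0.242, edgeR).

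The miRNAs that were furthest apart were few. miR-138-5p had -0.61 in thalamus and -0.07 in cortex (unadjusted p = 0.0272 for the difference, edgeR), and miR-10b-5p, encoded in a Hox cluster, differed by -0.91 (unadjusted p = 0.0300, edgeR). miR-375-3p, an epithelial and endocrine miRNA, had 0.06 in thalamus and 1.78 in cortex (unadjusted p = 0.00716, edgeR, and 0.00103 with the rat as a block). miR-132-5p had -0.33 and -0.80 (unadjusted p = 0.0112, edgeR). None of these differences between the regions passed the adjustment.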

How the data were processed

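Per the study's methods and the labels, total RNA of each sample gave small RNA libraries (NEBNext) that were size-selected for short inserts and sequenced on a NextSeq 500. Adapters were trimmed, reads checked with FastQC and mapped to RGSC3.4 with miRBase annotation. The aligner, the source of the tRNA features and the treatment of reads that map to several copies are not given in the sources used here. The authors deposited raw counts per miRNA, and, for miRNA and tRNA rows together, CPM of the reads kept after a filter on low rows.

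miRNA counts were tested with edgeR 4.0.16 (TMM scaling, filterByExpr, quasi-likelihood), 6 TBI against 6 sham libraries, with Benjamini-Hochberg adjustment over all features tested. The tRNA CPM, anticodon sums and ratios were tested with limma 3.58.1 on the log2 scale with a pseudocount of 1, after a minimum of 1 CPM in 6 libraries, so log2 fold changes of low features are understated. Arm ratios used counts with a pseudocount of 1 and at least 20 reads per arm on average. Families are names without member letters. DESeq2 1.42.0 was an alternative. Scripts were tested on simulated data. No pair among 30 pairs of replicates agreed within sampling noise.

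Each rat gave thalamus and cortex, and the deviations of a rat's 2 libraries from their group means had a median correlation of 0.38 (-0.18 to 0.64, above 0.1 in 8 of 12 rats). The pairing comes from the animal, so the interaction was also fitted with the rat as a block. Per-sample intervals and floors cover counting error only, since the libraries had no molecular identifiers.

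The features named are, in each test, those that passed and the 10 smallest p-values, the 3 most abundant, the most abundant members of each list and those with an unadjusted p under 0.05, and the arms, family or anticodon of these. Where these were many, they are given by example. The members, lists and tests were chosen with earlier results of these data known.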

Additional observations from a re-analysis of the deposited data

Results flagged for a closer look

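In 82 groups of 6 libraries (the named miRNAs, anticodons and called tRNA features, depth, tRNA share and scaling factor), 5 had a highest or lowest library whose gap to the next was above the 95% limit of Dixon's test for 6 values, and chance alone gives about 1 in 20. miR-181a-2-3p was 28.6 CPM in TBI rat 56, against at most 15.4 CPM in the other TBI rats. miR-128-3p, the most abundant miRNA, was 276856 CPM in sham rat 55, against at most 136386 CPM in the other controls. The TMM factor of the same rat was 0.745, against at least 1.01 in the other controls. Its level of tRNA4134-AsnGTT was 6.38 CPM, against at least 14.0 CPM in the other controls. Arg-TCT was 186 CPM in TBI rat 52, against at most 120 CPM in the other TBI rats. Of the 5 values, 4 belong to the 2 shallowest libraries, and the part of depth was not tested.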

How the results depend on the processing

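Alternatives were followed for 57 single features, those that passed and those with the smallest p-values, and none of these reversed. They were chosen by p-value on the same libraries, so a reversal was unlikely from the start and its absence says little. Of the values of these 57 features, 918 kept direction and side of the threshold, 41 kept the direction but lost the call and 15 gained one. Leaving out 1 rat at a time gave 0 to 2 miRNA calls, 10 to 15 tRNA feature calls, 0 to 1 family calls, 1 to 3 anticodon calls, 5 to 15 calls of features against their anticodon, 0 arm calls and 0 interaction calls. The difference in tRNA share stayed between 0.466 and 2.29 percentage points. miRNA calls came to 1 with a minimum mean of 50 counts, which removed miR-155-5p, and to 3 with DESeq2. They came to 5 with all 24 libraries in the fit, without the rat as a block. Family calls came to 0 with library size alone, 0 with no filter and 2 with DESeq2, the second being miR-142-5p. Calls of features against their anticodon came to 12 with a pseudocount of 5 and to 3 with a minimum of 10 CPM. Without the 2 shallowest libraries, an alternative chosen after seeing the data, there were 19 tRNA feature calls, 0 family calls and 18 calls of features against their anticodon. Why these counts moved was not tested. The rat as a replicate block left the interaction at 0 calls. Library size alone shifted the median interaction by -0.27 on the log2 scale, and other scalings of the thalamic miRNAs moved their median by less than 0.1. A count test on reads recovered from the tRNA CPM was not run, for features or anticodons. With 2 to 20 reads per control library, counting error is large for miR-155-5p. Members of lists near 0 were not followed singly, and some changed sign without 1 rat, among them miR-7a-5p, the member of the neuronal list above 0, since all 15 lay below 0 without sham rat 34 or TBI rat 56.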
